A study of Medicago truncatula with 16 samples.

Results

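The 150 genes described here are nuclear genes of *Medicago truncatula*, a legume, whose levels were lower after polyethylene glycol (PEG) treatment in radicles of both stages and not lower by as much in cotyledons. They were chosen by measured values of the same 16 libraries that are described below. The level of a gene was its count as a share of the counts assigned to nuclear genes, scaled to the usual CPM, and the change with PEG was the difference of log2(group mean CPM + 1) between treated and untreated tissue. Of 44316 nuclear identifiers, 3471 had a change of -1 or lower in both radicle stages. A change above -0.5 in both cotyledon stages was then asked for, which left 559 genes. These were ranked by the lower cotyledon change minus the smaller radicle fall, and the first 150 were taken, with 409 left out. The changes with PEG chose the genes and are therefore given as descriptions, with no test.

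RNA-Seq covered radicles and cotyledons dissected from germinating seeds of cultivar A17, in 8 groups of 2 biological replicates. R1 and C1 were the radicle and the cotyledons of untreated seeds whose radicle had reached 1 mm, and R5 and C5 those of seeds at 5 mm. R1P, C1P, R5P and C5P came from seeds of the same stages kept for 3 days at 10 °C in the dark in a PEG solution of -1.7 MPa. Seeds kept cold and dark without PEG were not among the groups, so a difference with PEG includes those 3 days. Each library pooled many seeds, 50 by the description of the series and about 100 by the protocol. The sources call the tissue both desiccated and freshly harvested, so whether it was dried before extraction cannot be told. Identifiers are those of the Mtv5 gene set, and coordinates and sequences of the genes were not used here.

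As background, the radicle is the embryonic root, which leaves the seed first and grows by taking up water while its walls loosen, with cell division starting near the tip. Cotyledons are storage leaves that mostly expand and mobilise reserves. PEG is an osmoticum too large to enter cells, and it withholds water so that growth stops. In many species such treatment can bring back desiccation tolerance, the ability to survive drying, in seeds that have only just germinated.

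The libraries held between 22012976 and 23257652 counts, so that depth was nearly equal. A library at 3 counts or fewer was taken as at the floor, which is 0.129 to 0.142 CPM and covers counting error only. The second C1P replicate stood apart, with 4.09% of its counts from organelle genes against 0.0503% to 0.933% elsewhere. Annotated photosynthesis genes (5 genes, of which 4 were in the study's tables of genes higher with PEG) summed to 7.01 to 9.97 CPM in R1 and 111 to 117 CPM in C1. Their sum was also higher after PEG, at 47.7 to 48.6 CPM in R1P and 267 to 290 CPM in C1P, and its part in the results was not tested. Of the 5, the photosystem II gene MtrunA17Chr4g0015471 was at 0 in R5, R5P, C1P, C5 and C5P. The single root marker that could be matched was a casparian strip membrane protein. It too was annotated in the study's tables, which were formed on expression or chromatin in radicles. This gene was not higher in radicles, with 8.00 to 10.5 CPM in R1 and 11.2 to 12.4 CPM in C1. At the 5 mm stage it had 12.4 to 17.3 CPM in R5 and 37.9 to 69.6 CPM in C5. It was lower after PEG in both tissues, at 0.349 to 0.864 CPM in R1P, 8.31 to 8.45 CPM in R5P, 1.19 to 2.37 CPM in C1P and 4.12 to 5.54 CPM in C5P, and its part in the results was not tested. In whole tissue, fewer cells of a type and less RNA per cell cannot be told apart.

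In radicles the chosen genes were lower after PEG at both stages, as the choice requires, and most went from moderate to low levels. Their median group mean was 13.9 CPM in R1 and 2.17 CPM in R1P, and 21.6 CPM in R5 and 2.72 CPM in R5P. Summed over the 150 genes, the R1 libraries held 10479 and 10869 CPM and the R1P libraries 1976 and 1917 CPM. The corresponding sums were 23470 and 19602 CPM in R5 and 3743 and 3515 CPM in R5P. The median change with PEG was -2.09 in 1 mm radicles and -2.26 in 5 mm radicles on the log2(CPM + 1) scale. Against this, the median over the 20316 genes with at least 1 CPM on average was -0.34 and -0.25. On this scale the change was larger at 5 mm in 87 genes and larger at 1 mm in 63. The added 1 CPM limits falls to low levels, and 54 genes were under 1 CPM in R1P and 31 in R5P. In the edgeR model described below the medians were -2.47 in R1P against R1 and -2.40 in R5P against R5. A stronger fall at 5 mm is therefore not read from the counts. A change of -2 or lower in both stages was held by 75 genes, and 30 genes were under 1 CPM in both treated radicle groups.

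**Figure D1:**
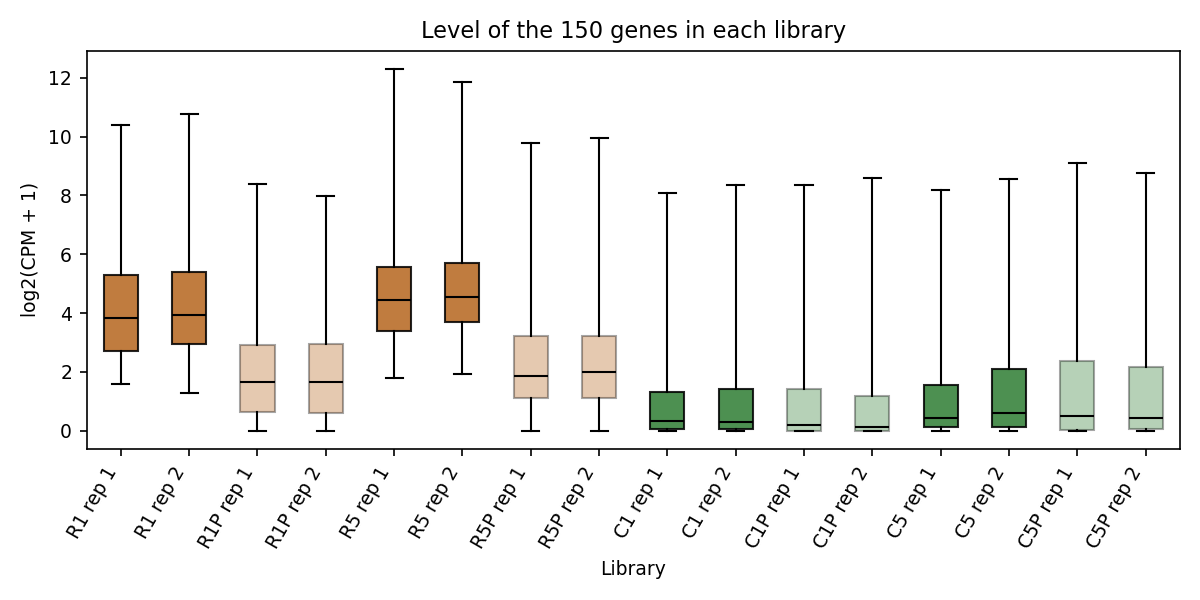
Level of the 150 genes in each of the 16 libraries, as log2(CPM + 1), with boxes from the lower to the upper quartile, a line at the median and whiskers to the lowest and highest gene. Brown boxes are radicles and green boxes cotyledons, with PEG-treated libraries in the paler shade. Both libraries of R1 and of R5 lie above all treated radicle and all cotyledon libraries in their medians, as the choice of genes requires for the treated radicles.

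The cotyledon side of the choice was mostly a matter of detection. Of the 150 genes, 95 were under 1 CPM in both C1 and C5, and a gene that is hardly detected in a tissue cannot fall there. In 24 genes all 8 cotyledon libraries were at the floor, and in 8 of these all held 0 counts, which at this depth allows a level of up to 0.132 to 0.142 CPM. The median group mean in cotyledons was 0.24 CPM in C1, 0.11 in C1P, 0.38 in C5 and 0.38 in C5P. A radicle mean of 10 times the cotyledon mean or more at both untreated stages was seen in 109 genes. The choice itself raised this share, since among the 3471 genes lowered in radicles 396 were under 1 CPM in untreated cotyledons, and 300 of these were among the 559.

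The other 55 genes were at 1 CPM or more in C1 or C5, and 44 of them in both. In 25 of the 55 the cotyledon changes stayed within 0.5 on the log2(CPM + 1) scale at both stages. At 10 CPM or more in both untreated cotyledon groups, 14 genes were well measured in both tissues. Only MtrunA17Chr7g0271811, annotated as a WD40-like transcription factor, and MtrunA17Chr8g0335841, a lysine-tRNA ligase that loads tRNA with lysine, had a higher untreated mean in cotyledons than in radicles at both stages. The ligase gene had 15.8 and 18.5 CPM in R1, 4.15 and 4.84 CPM in R1P, 21.5 and 22.8 CPM in R5 and 4.68 and 3.75 CPM in R5P. In cotyledons it had 28.9 and 40.0 CPM in C1, 39.3 and 23.9 CPM in C1P, 35.5 and 71.5 CPM in C5 and 60.2 and 43.1 CPM in C5P. Treated and untreated libraries of this gene were apart in radicles and overlapped in cotyledons at both stages. Both genes were named after their values were seen.

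**Figure D2:**
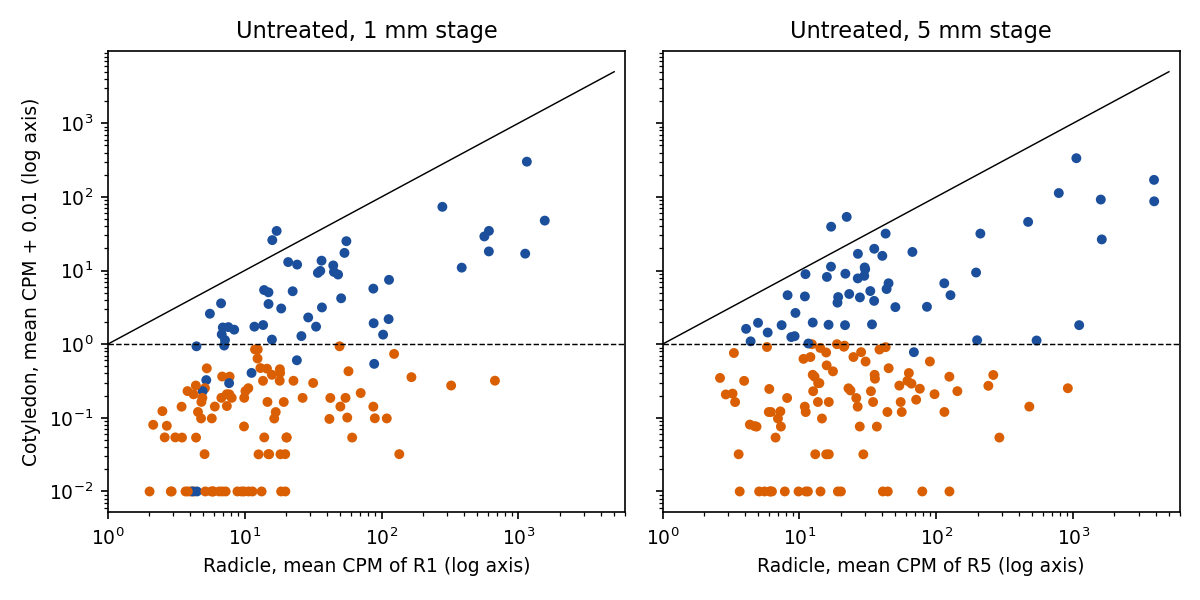
Untreated level of each of the 150 genes in radicles (horizontal axis, CPM) and cotyledons (vertical axis, CPM + 0.01), on log axes, at the 1 mm stage (left) and the 5 mm stage (right). Orange points are the 95 genes under 1 CPM in both C1 and C5 and blue points the other 55, the dashed line marks 1 CPM, and the solid line marks equal levels, which few points reach.

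The scale of the values bears on both sides of the choice. CPM do not correct for composition, and the median over all tested genes was lower with library totals than with TMM factors by 0.37 in R1P against R1, by 0.35 in R5P against R5, by 0.58 in C1P against C1 and by 0.10 in C5P against C5 (log2). With TMM-scaled CPM, 145 of the 150 genes still had a change of -1 or lower at 1 mm and 147 at 5 mm. All 150 kept cotyledon changes above -0.5. The median over the 20316 genes was -0.44 in C1P against C1 with library totals, so the limit of -0.5 there lay close to the change of an ordinary gene.

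**Figure D3:**
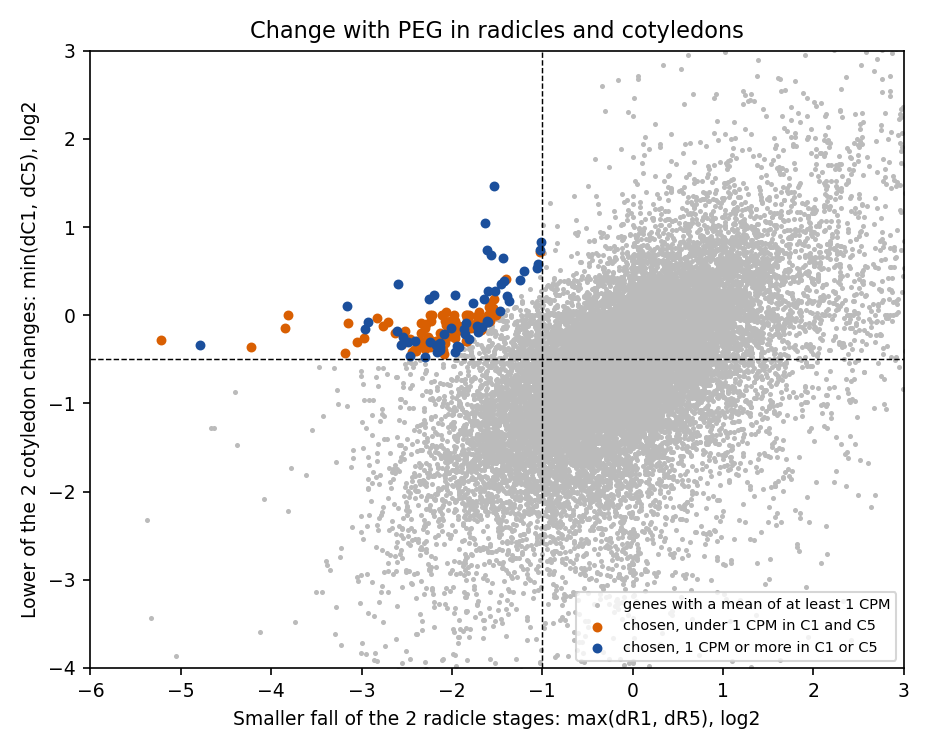
Change with PEG in radicles (horizontal axis, the smaller fall of the 2 stages) against the lower change of the 2 cotyledon stages (vertical axis), both as differences of log2(CPM + 1), for genes averaging 1 CPM or more (grey, those outside the axes not drawn) and the 150 chosen genes (orange and blue by cotyledon level). The dashed lines mark -1 and -0.5, and most chosen genes under 1 CPM in cotyledons sit near 0 on the vertical axis.

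In the edgeR model of the 8 radicle libraries, 144 of the 150 genes were called lower in R1P than in R1 and 145 lower in R5P than in R5. Both calls were held by 143 (95.3% of the 150), against 13.3% of all genes tested. Genes with an adjusted p below 0.05 that also differed by more than 1 on the log2 scale were counted as called. Over all 23793 genes tested, 20.5% were called lower and 15.2% higher at 1 mm, and 20.4% lower and 18.9% higher at 5 mm. The choice used these contrasts, so nothing is read from the counts. In the model of the 8 cotyledon libraries 78 of the genes passed the filter on low counts and 72 did not. Of the 78, 59 were called lower in both radicle contrasts and were not called with PEG in cotyledons, against 5.47% of the 21493 genes tested in both models, which the choice again fixes for the most part.

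The gene ranked first, MtrunA17Chr6g0467251, was not annotated. On the log2(CPM + 1) scale it showed the steepest fall at both stages among the 150. It had 321 and 323 CPM in R1 and 8.99 and 6.40 CPM in R1P. In R5 it had 921 and 906 CPM, and in R5P 7.07 and 9.93 CPM. The 8 cotyledon libraries held between 0 and 0.484 CPM. Replicates of each radicle group were close, and treated and untreated radicles were far apart. At the other end of the list the limit was a matter of decimals. The last gene taken, MtrunA17Chr1g0150511, had a ranking score of 1.5043, and the first left out, MtrunA17Chr8g0342361, a score of 1.5031. The genes beside these had 1.5102 (MtrunA17Chr4g0063241, taken) and 1.4922 (MtrunA17Chr6g0476521, left out).

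Annotations were at hand for 68 of the 150 genes, of which 9 were given only as putative or hypothetical proteins. They came from the study's tables, 64 from its table of genes lower in R1P than in R1, which was formed on these libraries. The annotated genes are therefore not an independent sample of the 150, and 82 had no annotation here. Some of these tables were at hand only in shortened form. A missing annotation or an empty list can therefore come from this and says nothing about the gene. Levels are compared only within a gene, since CPM are not scaled for gene length.

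Cell wall genes among them were 4. Extensins are structural wall glycoproteins, and beta-galactosidases trim galactose from wall polymers. The extensin-domain gene MtrunA17Chr1g0161771, ranked second, had 130 and 75.3 CPM in R1 and 3.46 and 1.67 CPM in R1P. It had 691 and 389 CPM in R5, 25.2 and 12.1 CPM in R5P, and 0.603 to 1.62 CPM in the cotyledon libraries. Its values were not whole numbers in any of the 16 libraries, so that reads were shared with similar transcripts and its level is uncertain. MtrunA17Chr7g0252601, a xyloglucan:xyloglucosyl transferase, a class of enzymes that cut and rejoin wall xyloglucan, had 10.9 and 8.86 CPM in R1, 1.40 and 1.86 CPM in R1P, 12.6 and 13.5 CPM in R5 and 2.87 and 3.75 CPM in R5P. Its cotyledon libraries held 0 to 0.133 CPM. MtrunA17Chr6g0487531, an arabinogalactan protein of the cell surface, was measured in both tissues, with a mean of 18.5 CPM in R1 and 4.37 CPM in R1P against 3.04 CPM in C1 and 2.49 CPM in C1P.

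The beta-galactosidase gene MtrunA17Chr3g0130711 moved in opposite directions in the tissues. It had 568 and 649 CPM in R1, 186 and 232 CPM in R1P, 447 and 489 CPM in R5 and 113 and 155 CPM in R5P. In cotyledons it had 32.1 and 36.9 CPM in C1, 116 and 85.2 CPM in C1P, 38.9 and 52.5 CPM in C5 and 129 and 126 CPM in C5P. Treated and untreated libraries did not overlap in any of the 4 pairs of groups, lower with PEG in radicles and higher in cotyledons. After PEG the difference between the tissues was smaller, and the R5P and C5P libraries overlapped.

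Of 70 genes with a wall-related annotation in the study's tables, 61 were tested in cotyledons, where 28 were called lower and 8 higher in C1P than in C1, and 22 lower and 8 higher in C5P than in C5. Over all 23060 genes tested in cotyledons, 14.9% were called lower and 13.8% higher in C1P than in C1, and 12.1% lower and 9.02% higher in C5P than in C5. The wider list was drawn from tables that the study formed on expression or chromatin in radicles. The shares of all genes are therefore not a like background for it, and nothing is read from the difference.

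Cytoskeleton and division genes also counted 4, of 103 so annotated. Kinesins are motor proteins that walk along microtubules and act in spindle and cell plate formation. MtrunA17Chr3g0122121, a kinesin, had 34.6 and 31.8 CPM in R1, 6.59 and 7.52 CPM in R1P, 48.0 and 52.4 CPM in R5 and 9.14 and 8.06 CPM in R5P. In cotyledons this kinesin gene had 0.663 to 4.07 CPM, and its values were not whole in 9 of 16 libraries. The kinesin MtrunA17Chr4g0069141 had 15.5 and 13.6 CPM in R1, 1.70 and 2.12 CPM in R1P, 20.0 and 22.3 CPM in R5 and 1.57 and 1.05 CPM in R5P, with 15 of 16 libraries not whole. Another kinesin, MtrunA17Chr1g0193221, had a mean of 6.92 CPM in R1 and 0.781 CPM in R1P. MtrunA17Chr7g0268631, an actin-binding protein of the Networked family, had 13.1 and 16.8 CPM in R1 and 0.436 and 0.519 CPM in R1P, while its C1 libraries held 5.09 and 5.00 CPM and its C1P libraries 4.81 and 5.26 CPM. For this actin-binding gene the cotyledon level was well above the floor and its C1 and C1P libraries overlapped.

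The list of chromatin and DNA genes held 0 of the 150, of which only 68 had an annotation here. The annotations of 4 further genes, on none of the lists and named after their values were seen, refer to chromosomes or DNA replication. MtrunA17Chr8g0370091, a structural maintenance of chromosomes protein, had a mean of 34.2 CPM in R1 and 7.72 CPM in R1P against 9.27 CPM in C1 and 8.25 CPM in C1P. MtrunA17Chr1g0148131, a replication protein A that binds single-stranded DNA, had a mean of 35.6 CPM in R1 and 7.73 CPM in R1P against 9.87 CPM in C1 and 12.4 CPM in C1P. MtrunA17Chr1g0210361, an inner centromere protein, had a mean of 48.1 CPM in R1 and 12.5 CPM in R1P against 8.81 CPM in C1 and 7.13 CPM in C1P. The condensin subunit gene MtrunA17Chr2g0295841 had a mean of 12.5 CPM in R1 and 2.88 CPM in R1P and was under 1 CPM in C1, C1P and C5. Values of MtrunA17Chr8g0370091, MtrunA17Chr1g0148131 and MtrunA17Chr2g0295841 were not whole in most libraries. Among the 101 annotated cytoskeleton and division genes tested in cotyledons, 32 were called lower and 12 higher in C1P than in C1. In C5P against C5, 13 were called lower and 14 higher. The shares of all genes given for the wall list are not a like background here either, and nothing is read from the difference.

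Transport genes were 3 by the list. The sugar transporter MtrunA17Chr2g0286721, of the major facilitator superfamily, had 50.6 and 64.0 CPM in R1, 2.57 and 1.43 CPM in R1P, 59.6 and 63.4 CPM in R5 and 1.86 and 2.83 CPM in R5P. Its cotyledon libraries held at most 0.487 CPM. The proton-exporting P-type pump MtrunA17Chr2g0298031, of the kind that acidifies the wall and energises transport, had 54.5 and 44.2 CPM in R1, 7.24 and 5.96 CPM in R1P, 26.3 and 30.1 CPM in R5 and 3.84 and 6.06 CPM in R5P. Both transport genes were under 1 CPM in every cotyledon library. A further hexose transporter of the STP type, MtrunA17Chr4g0048411, named after its values were seen, had a mean of 113 CPM in R1 and 14.9 CPM in R1P against 7.46 CPM in C1 and 9.10 CPM in C1P.

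Lipid genes were 3. Lipid transfer proteins are small secreted proteins that bind lipids, many of them made by the epidermis. The lipid transfer protein gene MtrunA17Chr4g0064361 had 959 and 1280 CPM in R1, 144 and 128 CPM in R1P, 1750 and 1483 CPM in R5 and 253 and 170 CPM in R5P. In cotyledons it had 20.2 and 13.7 CPM in C1, 18.3 and 13.8 CPM in C1P, 18.5 and 34.4 CPM in C5 and 133 and 101 CPM in C5P. Its cotyledon libraries overlapped at the 1 mm stage and were apart, higher with PEG, at the 5 mm stage. MtrunA17Chr3g0123881, an acylglycerol lipase, had 14.8 and 12.9 CPM in R1, 4.67 and 3.33 CPM in R1P, 17.1 and 16.9 CPM in R5 and 5.12 and 3.01 CPM in R5P. For the lipase the cotyledon values were 5.75 and 5.09 CPM in C1, 15.1 and 17.5 CPM in C1P, 12.2 and 10.3 CPM in C5 and 19.6 and 17.8 CPM in C5P. Its libraries did not overlap in any of the 4 pairs, with opposite directions in the tissues.

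The list of transcription factors held 6 of the genes, that of kinases and receptors 5 and that of hormones 1, with MtrunA17Chr1g0150511 on both of the first lists. Histidine kinases and response regulators pass the cytokinin signal by phosphate transfer, and A-type regulators damp it. MtrunA17Chr1g0150511, annotated as a response regulator of the A type, had 39.6 and 44.9 CPM in R1, 7.33 and 9.94 CPM in R1P, 30.5 and 38.5 CPM in R5 and 11.5 and 8.77 CPM in R5P, and at most 0.358 CPM in cotyledons. Its next identifier among the chosen genes, MtrunA17Chr1g0150531, a histidine kinase, had 5.09 and 6.61 CPM in R1, 0.0915 and 0.175 CPM in R1P and 0 counts in every cotyledon library. Values of both were not whole in each of the 8 radicle libraries. The small auxin-up RNA MtrunA17Chr4g0070071, of a family of early auxin-response genes, had 28.7 and 34.5 CPM in R1 and 3.14 and 4.88 CPM in R1P. The bZIP transcription factor MtrunA17Chr2g0325131 had 16.2 and 22.4 CPM in R1, 2.14 and 2.07 CPM in R1P, 25.4 and 26.6 CPM in R5 and 1.55 and 1.70 CPM in R5P. On the list of transcription factors the bHLH gene MtrunA17Chr5g0415291, named after its values were seen, had means of 1.14 CPM in C1 and 1.96 CPM in C5, and the WD40-like gene MtrunA17Chr7g0271811 had 25.9 CPM in C1 and 39.3 CPM in C5, above its radicle means. The receptor-like cytoplasmic kinase MtrunA17Chr4g0005801 had 11.2 and 13.6 CPM in R1 and 1.21 and 1.72 CPM in R1P, with 15 libraries not whole.

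The list of peroxidases and laccases held 1 of the genes and that of cytochromes P450 held 2. MtrunA17Chr1g0213061, a peroxidase, had 90.2 and 83.8 CPM in R1, 7.20 and 7.43 CPM in R1P, 106 and 143 CPM in R5 and 21.5 and 24.1 CPM in R5P. The primary-amine oxidase gene MtrunA17Chr4g0065991, on none of the lists, whose enzyme class releases hydrogen peroxide from amines, had 19.8 and 16.6 CPM in R1, 0.307 and 0.173 CPM in R1P, 26.1 and 29.1 CPM in R5 and 1.02 and 1.05 CPM in R5P. Its values were not whole in 15 libraries. The cytochrome P450 gene MtrunA17Chr4g0020041, from a family of oxygen-inserting enzymes, had 70.0 and 51.9 CPM in R1 and 14.2 and 14.3 CPM in R1P. These 3 genes were under 1 CPM in every cotyledon library. Acid phosphatases free phosphate from organic compounds, and MtrunA17Chr1g0186301, an acid phosphatase also on none of the lists, had 55.3 and 53.8 CPM in R1, 12.1 and 12.4 CPM in R1P, 41.6 and 46.2 CPM in R5 and 2.21 and 3.49 CPM in R5P.

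**Figure D4:**
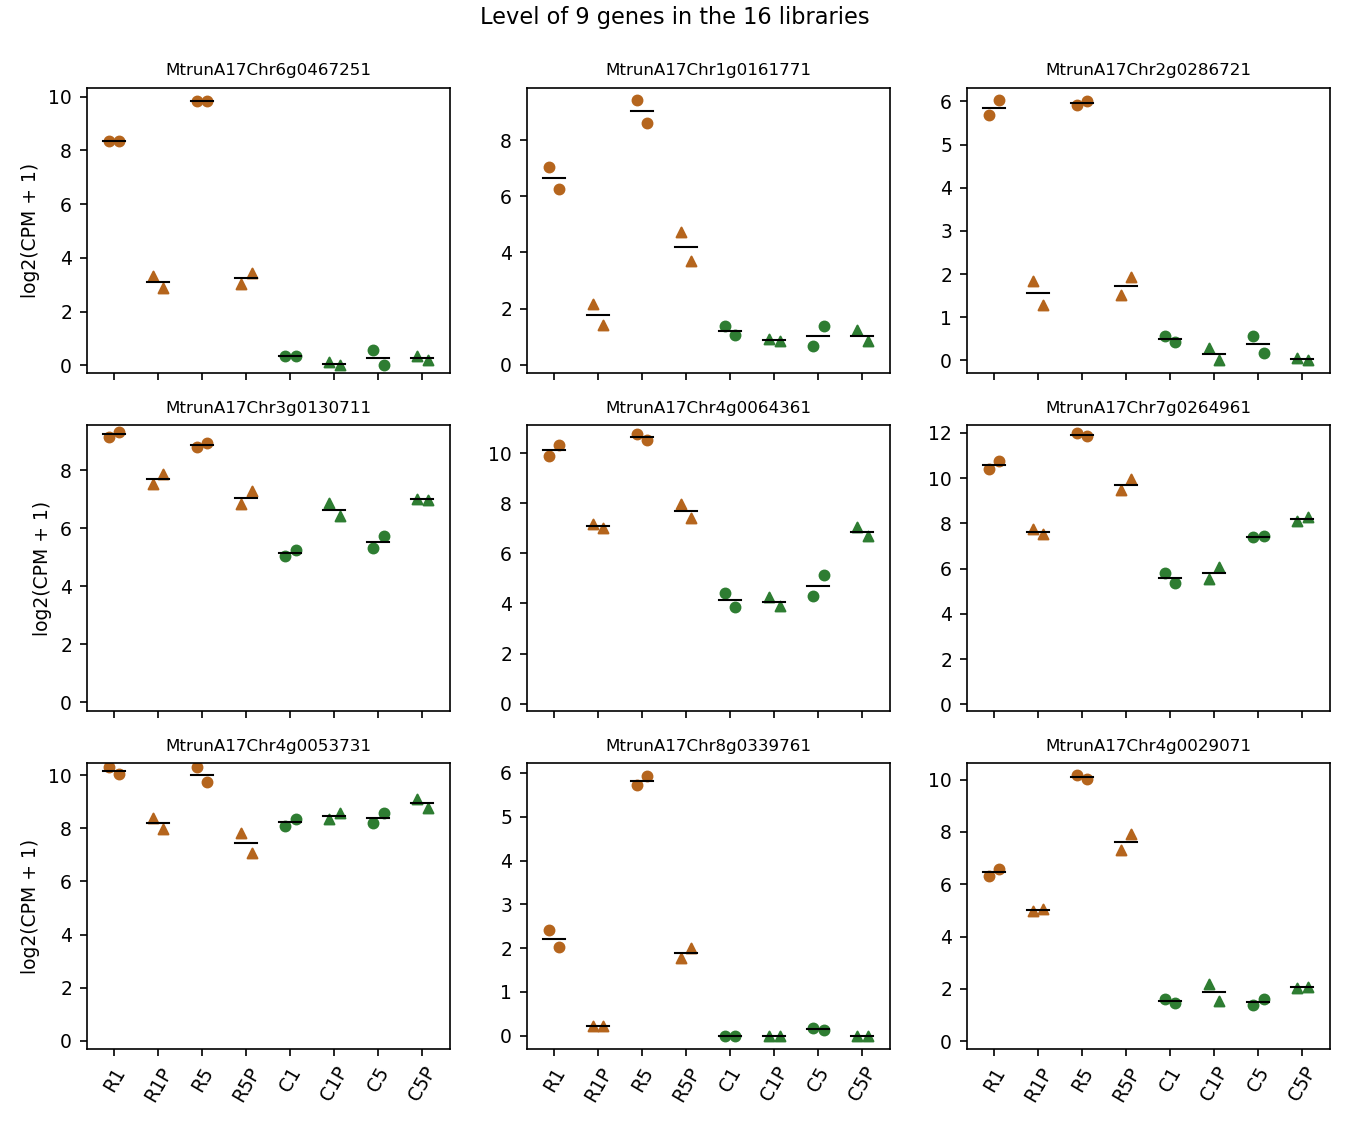
Level of 9 of the chosen genes in the 16 libraries as log2(CPM + 1), with circles for untreated and triangles for PEG-treated libraries, brown for radicles and green for cotyledons, and a line at the mean of each group. MtrunA17Chr6g0467251 and MtrunA17Chr2g0286721 stay near 0 in cotyledons, whereas MtrunA17Chr3g0130711 is higher with PEG in cotyledons and lower in radicles.

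Most of the genes with the highest CPM had no annotation at hand. MtrunA17Chr7g0264961 had 1356 and 1754 CPM in R1, 213 and 184 CPM in R1P, 4108 and 3679 CPM in R5 and 704 and 996 CPM in R5P. In cotyledons it had 40.7 to 66.4 CPM at the 1 mm stage and 167 to 307 CPM at the 5 mm stage. The next identifier, MtrunA17Chr7g0264971, had the same order of the radicle groups, with 566 and 649 CPM in R1, 104 and 88.5 CPM in R1P, 1815 and 1365 CPM in R5 and 250 and 326 CPM in R5P. Neither gene had whole values in any library, so reads may have been divided between them or with other copies. MtrunA17Chr1g0161751 had 729 and 398 CPM in R1, 98.1 and 91.4 CPM in R1P, 5072 and 2735 CPM in R5 and 880 and 384 CPM in R5P, also never whole, and its replicates were far apart. MtrunA17Chr4g0053731, annotated as a putative protein with whole values throughout, had 1250 and 1052 CPM in R1, 334 and 252 CPM in R1P, 273 and 328 CPM in C1 and 323 and 382 CPM in C1P. This gene was the most even between the tissues of the 6 with the highest CPM, and its R1P libraries overlapped its C1 libraries.

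In cotyledons 14 genes had a rise of 1 or more on the log2(CPM + 1) scale in at least 1 stage, 11 of them in C5P only. MtrunA17Chr3g0130711 and MtrunA17Chr3g0133071 were higher by this much at both stages. The latter, not annotated, had 1.15 and 1.40 CPM in C1, 5.16 and 2.23 CPM in C1P, 6.03 and 7.37 CPM in C5 and 19.5 and 19.9 CPM in C5P. Its radicle values were 27.2 and 24.7 CPM in R1, 7.86 and 7.52 CPM in R1P, 42.8 and 46.8 CPM in R5 and 13.7 and 12.9 CPM in R5P. All its treated libraries were apart from the untreated ones in both tissues. In the edgeR model 8 of the 78 tested genes were called higher in C1P than in C1 and 12 in C5P than in C5, with 4 in both. Over all 23060 genes tested, 13.8% were called higher in C1P, 9.02% in C5P and 5.92% in both. The choice left out genes that fell in cotyledons, so these counts carry no reading. They moved with single libraries, to 5 without C1 replicate 2 for the 1 mm stage, and for the 5 mm stage to 6 without C5 replicate 1 or without C5P replicate 1 and to 4 without C5P replicate 2. Without C1P replicate 2, the library that stood apart, 10 genes were called at the 1 mm stage.

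How the chosen genes differed between the stages was not used to choose them, although the libraries were the same and every chosen gene had to be detected in both R1 and R5 (the lowest group means were 2.02 and 2.63 CPM). Between untreated radicles, 38 of the 150 genes (25.3%) were called with a higher level at 5 mm, R5 against R1, and 2 (1.33%) with a lower one, against 13.8% and 3.78% of the 23793 genes tested. The median log2 fold change was 0.36 over the 150 genes and -0.07 over all genes, and 104 of the 150 were above 0. In the class under 1 CPM in untreated cotyledons 23 of 95 genes rose, and in the other class 15 of 55. Of the 38 that rose, 36 had no annotation here and 13 were not whole in 8 or more libraries.

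The steepest rise was that of MtrunA17Chr8g0339761, with 4.34 and 3.05 CPM in R1 and 51.9 and 59.8 CPM in R5, a log2 fold change of 3.83 ± 0.22 (SE, edgeR adjusted p = 2.26e-06). In treated radicles it had 0.175 and 0.173 CPM in R1P and 2.43 and 3.01 CPM in R5P, and in cotyledons at most 0.132 CPM. MtrunA17Chr5g0409021 had 5.54 and 8.19 CPM in R1 and 141 and 52.8 CPM in R5 (3.74 ± 0.46, edgeR adjusted p = 0.000389). Its replicates of R5 were far apart, and its values were not whole in any of the 8 libraries that held a count. MtrunA17Chr4g0029071 had 79.0 and 96.0 CPM in R1 and 1168 and 1043 CPM in R5 (3.58 ± 0.20), with 11 libraries not whole. In all 3 genes the stages were well apart in untreated radicles. The gene ranked first, MtrunA17Chr6g0467251, also rose, by 1.42 ± 0.19 on the log2 scale (edgeR adjusted p = 0.000376).

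The genes that fell were MtrunA17Chr1g0210591, a ribonuclease H that removes RNA from RNA-DNA hybrids, and MtrunA17Chr7g0276531, not annotated. The ribonuclease H gene had 10.3 and 13.2 CPM in R1 and 5.42 and 6.31 CPM in R5, a log2 fold change of -1.09 ± 0.24 (edgeR adjusted p = 0.00766). MtrunA17Chr7g0276531 had 334 and 436 CPM in R1 and 200 and 190 CPM in R5 (-1.06 ± 0.17, edgeR adjusted p = 0.00141). Both lay close to the fold threshold, and without R5 replicate 1 the count of falls was 1. Among annotated genes with roles in growth the proton pump MtrunA17Chr2g0298031 had a log2 fold change of -0.90 ± 0.21 (edgeR adjusted p = 0.00941) and the kinesin MtrunA17Chr3g0122121 of 0.51 ± 0.15 (edgeR adjusted p = 0.0269), neither past the fold threshold. For the 64 annotated wall genes tested, 2 were called as rising and 8 as falling from R1 to R5, and for the 103 cytoskeleton and division genes 6 and 7, against the 13.8% and 3.78% of all genes tested. These lists hold only genes annotated in the study's tables, and of the 38 chosen genes that rose just 2 were annotated. The shares of all genes are therefore not a like background for the lists, and nothing is read from the difference.

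Between treated radicles, 38 genes were again called higher at 5 mm, R5P against R1P, and 8 (5.33%) lower, against 15.3% and 3.82% of all genes tested. In 7 of the genes called higher R1P was at the floor, and some of these were also under 1 CPM in R5P. Of the 38, 28 were also among those higher in R5 than in R1, which is 18.7% of the 150 genes, against 7.46% of all genes tested. The median log2 fold change was 0.27, and 0.29 with genes at the floor set to their bound, against 0.05 over all genes. With library totals the median of all genes moved by 0.11 (log2) in this contrast. Without R1P replicate 1, and likewise without R5P replicate 2, the count of falls was 13.

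MtrunA17Chr8g0343921, not annotated, had 1 and 0 counts in the R1P libraries and 278 and 253 counts in R5P, which is 12.3 and 11.0 CPM. In untreated radicles it had 10.5 and 10.9 CPM in R1 and 43.1 and 45.3 CPM in R5, and 0 counts in every cotyledon library. MtrunA17Chr5g0409021 had 0 counts in both R1P libraries and 4.84 and 3.17 CPM in R5P, at least 30.8-fold higher when R1P is set to the floor of 3 counts per library. Both genes were thus at or under the floor in R1P and above it in R5P. The extensin-domain gene MtrunA17Chr1g0161771, which was above the floor in R1P, rose by 2.75 ± 0.51 (edgeR adjusted p = 0.00253). The acid phosphatase MtrunA17Chr1g0186301 was lower in R5P than in R1P, by the values given above, with a log2 fold change of -2.22 ± 0.20 (edgeR adjusted p = 3.22e-05). MtrunA17Chr7g0262141, not annotated, had 22.1 and 27.6 CPM in R1P and 9.06 and 9.11 CPM in R5P (-1.56 ± 0.15). The peroxidase MtrunA17Chr1g0213061 rose by 1.53 ± 0.17 (edgeR adjusted p = 0.000138) between the treated stages. The histidine kinase MtrunA17Chr1g0150531 had 0.0915 and 0.175 CPM in R1P, near the floor, and 0.954 and 0.818 CPM in R5P. Its log2 fold change of 2.64 ± 0.48 (edgeR adjusted p = 0.00234) thus rests on levels under 1 CPM in both groups and is uncertain in size.

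In untreated cotyledons, 11 of the 78 tested genes (14.1%) were called higher in C5 than in C1, against 5.7% of the 23060 genes tested. In the other direction the edgeR test called 0 of the 78, with 1 at an unadjusted p under 0.05 and 1 called by DESeq2, against 2.92% of all genes. The median log2 fold change was 0.72 over the 78 genes and 0.01 over all genes. The choice used these C1 and C5 libraries through its limit of -0.5 on the cotyledon changes. Over the 20316 genes the median change was -0.44 in C1P against C1 and -0.09 in C5P against C5. The limit thus bore unequally on the stages, and 5 of the 78 genes had 1 of the 2 groups at the floor. The shares and the median in cotyledons are therefore given as descriptions only. All 11 genes called higher were in the class with 1 CPM or more in untreated cotyledons. That class is set by the same C1 and C5 levels, and just 23 genes of the other class were tested. Nothing is therefore read from the class. Of the 11, 7 were also higher in R5 than in R1 (8.97% of the 78, against 3.27% of the genes tested in both models). The count rested on single libraries, at 1 without C1 replicate 1, 0 without C1 replicate 2 and 6 without C5 replicate 1 or without C5 replicate 2. MtrunA17Chr3g0138841, not annotated, had 1.99 and 1.62 CPM in C1 and 8.89 and 11.9 CPM in C5, a log2 fold change of 2.57 ± 0.34 (edgeR adjusted p = 0.00367). MtrunA17Chr3g0133071 had 2.44 ± 0.37 (edgeR adjusted p = 0.00654), from the values given above. The C1 and C5 libraries of both genes did not overlap. MtrunA17Chr7g0264971, never whole, had 18.4 and 17.9 CPM in C1 and 82.4 and 101 CPM in C5 (2.40 ± 0.55, edgeR adjusted p = 0.0317). Among annotated genes the lipase MtrunA17Chr3g0123881 rose by 1.12 ± 0.25 (edgeR adjusted p = 0.0272).

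**Figure D5:**
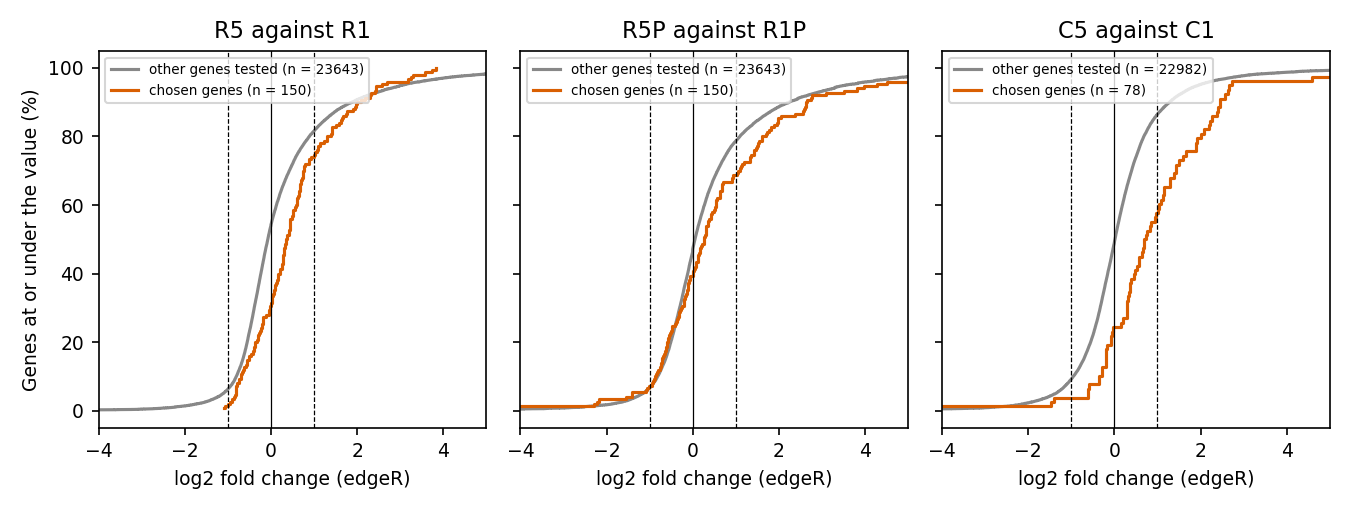
Cumulative share of genes (vertical axis, percent) at or under each log2 fold change (horizontal axis, edgeR) for R5 against R1, R5P against R1P and C5 against C1, with the chosen genes in orange (150, 150 and 78) and the other genes tested in grey. Dashed lines mark a log2 fold change of -1 and 1, and the orange curve lies to the right of the grey one over most of the range, with medians over the chosen genes of 0.36, 0.27 and 0.72.

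Whether the stage effect differed between the tissues was tested in 1 edgeR model of the 16 libraries. Of the 150 genes 8 were called (5.33%), against 5.44% of the 25524 genes tested, so the share was near the background. Without any single one of the untreated libraries the count fell to between 1 and 5. MtrunA17Chr4g0029071 differed most clearly, by -3.67 ± 0.36 (cotyledons minus radicles, log2, edgeR adjusted p = 0.00015). In cotyledons it had 2.08 and 1.75 CPM in C1 and 1.58 and 2.02 CPM in C5, which overlap.

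By their identifiers the chosen genes lay on all 8 chromosomes, and 1 lay on an unplaced scaffold. Chromosome 4 held 32 of them (21.3%) and chromosome 1 held 30 (20%), while 16.96% and 15.02% of the genes with at least 1 CPM in R1 and R5 lay there. Chromosome 5 held 9 (6%) against 11.0%. Within 5 identifiers of each other lay 6 pairs of chosen genes, 3 of them side by side. The side-by-side pairs were the response regulator and histidine kinase on chromosome 1, MtrunA17Chr7g0264961 with MtrunA17Chr7g0264971, and a putative dynein ATPase, MtrunA17Chr4g0063491, with the hypothetical protein MtrunA17Chr4g0063481. The extensin-domain gene MtrunA17Chr1g0161771 lay 2 identifiers from MtrunA17Chr1g0161751, and both were never whole.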

How the data were processed

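RNA was sequenced as single-end reads in 16 libraries, 8 of radicles and 8 of cotyledons. The authors assigned the reads to the Mtv5 transcriptome with Salmon version 1.2 and deposited expected counts per gene, which were not scaled for depth or length. Of the values in a library, 15.3 to 21.6% were not whole, and all were rounded before testing. Groups followed the sample titles. The sums behind CPM left out the 157 organelle identifiers of 44473, and the log2 changes used a pseudocount of 1 CPM.

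Stage contrasts were tested with edgeR version 4.0.16 (quasi-likelihood, TMM, filterByExpr, Benjamini-Hochberg over all genes tested) in R version 4.3.3, in a model per tissue. The interaction used 1 model of all libraries and was added after the data were seen. The tests were tried on simulated data. Labels do not say what separated the biological replicates, so p-values measure the spread between these samples. The genes and the functional lists were chosen with earlier results of these data known. Set for naming were the first 10 by rank, the 6 with the highest CPM and the largest cotyledon rises. To these came up to 2 of each larger functional list, the largest stage changes and the genes at the limit of the list. The genes ranked 5, 6, 7 and 9 and MtrunA17Chr0c12g0493661 were among these but are not described. Some others are marked as named after their values were seen. Genes of smaller lists, further list members, neighbouring genes and interaction calls were also named outside this rule, without a mark. Alternatives were library totals or RLE factors in place of TMM, DESeq2 version 1.42.0, no filter, the adjusted p alone, a replicate block, the 16-library model, other pseudocounts and column sums, and each library left out.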

Additional observations from a re-analysis of the deposited data

Results flagged for a closer look

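The change between the 1 mm and the 5 mm stage differed between the tissues without PEG in 8 of the 150 genes, by the interaction test in edgeR, and 4 of these passed the filter on low counts in cotyledons. For MtrunA17Chr4g0029071 the effect in cotyledons minus that in radicles was -3.67 (log2). That gene rose in radicles, and its C1 and C5 libraries overlapped. For MtrunA17Chr3g0133071 the difference was 1.69, for MtrunA17Chr3g0138841 1.45 and for MtrunA17Chr5g0401771 1.04, with the larger rise in cotyledons for the first pair. MtrunA17Chr5g0401771 had 46.0 and 55.3 CPM in R1 and 31.6 and 34.3 CPM in R5, against 4.64 and 3.73 CPM in C1 and 5.10 and 5.40 CPM in C5. The share of called genes, 5.33%, was near the 5.44% of all genes tested. With library totals 6 genes were called and with RLE factors 8. Single genes were not tested for a sample far from the others, since each group held 2 replicates.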

How the results depend on the processing

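With a pseudocount of 5 CPM in the choice, 78 of the 150 genes were chosen again, against 116 with TMM-scaled CPM, 111 with 0.5 CPM, all but 1 with sums over all identifiers, and 126 (without C1P replicate 2) to 143 when libraries were left out. Genes meeting all limits numbered 499 to 654 when libraries were left out. For R5 against R1 the adjusted p alone gave 64 calls in place of 40 and 14 falls in place of 2. Library totals and the 16-library model each gave 1 fall. Leaving out libraries gave 37 to 39 calls, 35 to 37 rises and 1 to 3 falls. For R5P against R1P the adjusted p alone gave 23 falls in place of 8, and leaving out libraries gave 40 to 54 calls, 33 to 41 rises and 7 to 13 falls. For C5 against C1 library totals gave 6 calls in place of 11 and the 16-library model 26, of which 25 were rises and 1 a fall. DESeq2 also gave 1 fall, and leaving out libraries gave 0 to 6 calls. Genes higher in C1P than in C1 numbered 8, against 4 with library totals and 13 with the 16-library model, and those higher in C5P than in C5 12, against 19 with that model. The median of C5 against C1, 0.72, was 0.41 to 1.00 with libraries left out. The cause was not tested in any of these.

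The replicate numbers are shared by the groups, and no source says that they mark a shared batch. Their deviations correlated by 0.15 between R1 and R5, 0.09 between R1P and R5P and 0.30 between C1 and C5. With the replicate block 5 genes were called in C5 against C1, all rises, and the count of calls in the other contrasts moved by under 1.5 times. In cotyledons the deviations of same-numbered treated and untreated libraries ran opposite (-0.47 and -0.61), and the crossed block, added after seeing the data, gave 12 rises in C1P and 15 in C5P.

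Of 37 values of named genes over 370 alternatives, 343 kept their direction and side of the threshold, 27 lost the call and 0 reversed. With 2 replicates per group and a floor near 0.13 CPM, differences of genes under 1 CPM were hardly measurable.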
